A study of Caenorhabditis elegans with 2 samples.

Results

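Peaks of the transcription factor EOR-1 that lie far from any protein-coding gene on the 5 autosomes of Caenorhabditis elegans were examined by chromatin immunoprecipitation and sequencing (ChIP-seq), which recovers the DNA fragments that a protein is attached to. A peak is a stretch of DNA with more such fragments than a control, and its summit is the position of highest signal. A peak was called distal intergenic when its summit lay outside every protein-coding gene, more than 2000 bp from every protein-coding transcript start and more than 1000 bp from every protein-coding gene's 3′ end. Of the 6708 peaks in the list made from both replicates together, 5323 lay on autosomes and 563 of these met the rule, which is 8.39% of all peaks and 10.6% of the autosomal ones. The rule used position only, and no measured signal.

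The study has 1 group, GFP-tagged EOR-1 in larvae of the third stage (L3), with 2 biological replicates. The strain, OP81, carries the eor-1 transgene wgIs81 in an unc-119(ed3) III background, and the larvae were whole animals of both sexes, so a peak may come from any tissue and tissues cannot be told apart. No untagged strain, other stage or other factor stands beside this group, and the tagged protein comes from a transgene. The deposited lists of the replicates and of both together keep background entries, which makes the weak ones candidates, and 33 peaks passed the authors' test of reproducibility between replicates.

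EOR-1 belongs to the BTB and zinc finger family of transcription factors, is the relative of human PLZF, and acts with EOR-2 downstream of Ras and in Wnt signalling, among others in vulval and excretory duct development. Most regulatory DNA in the compact genome of this worm lies close to transcript starts. Sites far from starts can act as enhancers, can serve genes whose starts were trimmed away by trans-splicing, or can belong to noncoding genes such as those of microRNAs.

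A 10-base sequence, GAGACGCAGA, was assembled from the 3 8-mers AGACGCAG, GACGCAGA and GAGACGCA, which were the most enriched in the strongest peaks that are not distal intergenic. The first of them was present in 87 of 460 strong peaks outside the distal intergenic set (18.9%) and in 278 of 5223 weak ones (5.32%). No distal intergenic peak was used to find it. Matches with at most 1 mismatch were then searched on both strands within 100 bp of each summit, a window of 201 bp. The same was done for exact copies of GAGAGA, whose reverse complement is TCTCTC, and the ends of both motifs can overlap.

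The strongest distal intergenic peaks carried this sequence close to their summits. It is shown here, in capitals and on the strand that carries it, with 20 bases on either side, for 10 of the 11 members that have it among the 15 strongest. The sequence of the remaining one, beside sptf-3, is not shown. Coordinates are on ce11 (assembly WBcel235). In the order of the lines they are chrII:8787560-8787609 (minus strand), chrIII:13062608-13062657 (minus), chrIII:8658580-8658629 (plus), chrIV:828537-828586 (minus), chrIII:4282303-4282352 (minus), chrIII:12583640-12583689 (minus), chrIII:13061318-13061367 (minus), chrII:13335283-13335332 (plus), chrV:14368376-14368425 (minus) and chrV:14200246-14200295 (minus). Each line gives the protein-coding genes on either side and the peak's rank by signal.
sgn-1 and F07H5.13, rank 11: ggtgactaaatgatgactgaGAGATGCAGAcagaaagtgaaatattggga
F54F12.1 and Y39E4B.6, rank 13: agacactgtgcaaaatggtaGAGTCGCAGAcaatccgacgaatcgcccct
F22B7.9 and dpy-19, rank 23: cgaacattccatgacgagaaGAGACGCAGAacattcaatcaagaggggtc
zipt-15 and madf-1, rank 36: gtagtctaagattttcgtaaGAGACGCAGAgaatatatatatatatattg
sup-26 and R10E4.3, rank 48: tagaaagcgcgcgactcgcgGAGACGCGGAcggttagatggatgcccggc
aakg-1 and gldi-8, rank 112: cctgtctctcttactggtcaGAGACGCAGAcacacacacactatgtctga
F54F12.1 and Y39E4B.6, rank 114: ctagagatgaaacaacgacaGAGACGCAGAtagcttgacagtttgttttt
sam-10 and mrpl-20, rank 116: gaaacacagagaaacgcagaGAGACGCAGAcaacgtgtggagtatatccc
Y49A3A.4 and unc-39, rank 135: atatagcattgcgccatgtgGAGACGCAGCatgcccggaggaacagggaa
atfs-1 and T16A9.3, rank 145: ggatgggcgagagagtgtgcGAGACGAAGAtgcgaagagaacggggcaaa

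With positions counted from 1 at the first base of the 10-base sequence, the sgn-1 peak carried C5T, the rank 13 peak A4T, the sup-26 peak A8G, the unc-39 peak A10C and the atfs-1 peak C7A, and the other 5 lines hold the sequence without a mismatch. The centre of the match lay 0.5 bp from the summit in the rank 13 peak and between 23.5 and 63.5 bp from it in the other lines.

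Other members, which lead gene lists described below, are weak by signal and carry the sequence as well. The peak nearest to the collagen gene col-88, at chrIII:47882-47931 on the minus strand, has A10G, and the peak nearest to the F-box gene fbxa-220, at chrIII:11478644-11478693 on the plus strand, has an exact copy that is centred 93.5 bp from the summit.
col-88 and btb-5, rank 2214: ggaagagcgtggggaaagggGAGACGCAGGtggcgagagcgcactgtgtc
bed-2 and fbxa-220, rank 2215: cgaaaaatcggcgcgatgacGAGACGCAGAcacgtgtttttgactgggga

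The signal value of a peak is the peak caller's own, as deposited, and was compared within a list only. Over the 563 members it ran from 2.05 to 30.8 with a median of 3.08 (quartiles 2.51 and 4.35). The 4760 other autosomal peaks had a median of 3.10 (quartiles 2.53 and 4.55), and reached 113.8. The distal intergenic peaks therefore covered the same range as the rest except for its top, which lay outside them: the strongest member was the 11th peak of the pooled list.

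The strongest member lay in the 6.89 kb between sgn-1 and F07H5.13 on chromosome II, with its summit at 8787615. Its deposited signal was 30.8 in the pooled list, 16.6 in replicate 1 and 14.2 in replicate 2, where it ranked 12th in both lists. Its summit was 3945 bp from sgn-1 and 2942 bp from F07H5.13, and these genes are transcribed away from each other, so that the peak sits between both of their 5′ ends. It was 1 of the 3 members that passed the authors' reproducibility test.

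The second and the third of these did not rank alike in both replicates. The peak between F54F12.1 and Y39E4B.6 on chromosome III (summit 13062632) had a pooled signal of 30.5. It ranked 11th in replicate 1 with 16.7 and 276th in replicate 2 with 5.17. The peak between F22B7.9 and dpy-19 (summit 8658575, pooled rank 23, signal 22.4), 1297 bp from the 3′ end of dpy-19, ranked 7th in replicate 1 with 19.7 and 156th in replicate 2 with 6.32. dpy-19 encodes a C-mannosyltransferase needed for neuroblast migration.

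Of the 5323 autosomal pooled peaks, 0.47% coincided with a peak that passed the reproducibility test, meaning that the summits lay within 200 bp. The share was 3 of 563 members (0.533%, exact 95% interval 0.11 to 1.55%) and 22 of 4760 other autosomal peaks (0.462%, 0.29 to 0.699%). No difference between these shares was detected (odds ratio 1.15, two-sided Fisher's exact p = 0.743). The odds ratio was 1.82 with the list of replicate 2 alone, from 4 of 204 members, and 0.903 with that of replicate 1 alone, so its direction differed between the replicates.

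The next members by signal lay beside genes of several kinds. The peak between zipt-15, which encodes a zinc transporter of the ZIP family, and madf-1 on chromosome IV (summit 828607) had rank 36 in the pooled list, 35 in replicate 1 and 164 in replicate 2. The peak between gldi-3 and mtrr-1, which encodes a methionine synthase reductase (chromosome II, summit 9283054), had pooled rank 37 and went the other way, with rank 126 in replicate 1 and rank 8 in replicate 2. The peak between sup-26, an RNA-binding protein gene of the sex determination pathway, and R10E4.3 (chromosome III, summit 4282264) had pooled rank 48, and ranks 29 and 176.

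The peak between W06H8.6 and K08B12.3 (chromosome V, summit 6229689, pooled rank 62) ranked 80th and 70th in replicates 1 and 2, which are close to each other. The peak between lpin-1, which encodes the phosphatidate phosphatase lipin, and letm-1, a mitochondrial membrane protein gene (chromosome V, summit 13657545, pooled rank 83), ranked 246th and 66th. The peak between aakg-1, which encodes a gamma subunit of AMP-activated protein kinase, and gldi-8 (chromosome III, summit 12583711, pooled rank 112) differed most, with rank 652 in replicate 1 and rank 28 in replicate 2.

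The remaining members among the 15 strongest had lower ranks in both replicates than in the pooled list, apart from the atfs-1 peak in replicate 1 and the unc-39 peak in replicate 2. They lay beside sam-10 and mrpl-20 (pooled rank 116, 132 and 388 in replicates 1 and 2), sptf-3, which encodes an SP-family transcription factor (rank 121, 339 and 658), unc-39, a SIX-family homeobox gene (ranks 135 and 180, for 2 peaks of the same intergenic region), and atfs-1, the transcription factor of the mitochondrial unfolded protein response (rank 145, 129 and 573). A second peak of the F54F12.1 region, at 13061371, had pooled rank 114 and rank 419 in replicate 1, with no summit within 200 bp in replicate 2. Replicate 2 had a summit just beyond that distance, at 13061592 (rank 25). Of the 15, 14 had a summit in both replicate lists, 11 had the 10-base sequence (6 without a mismatch) and 10 had GAGAGA.

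**Figure D1:**
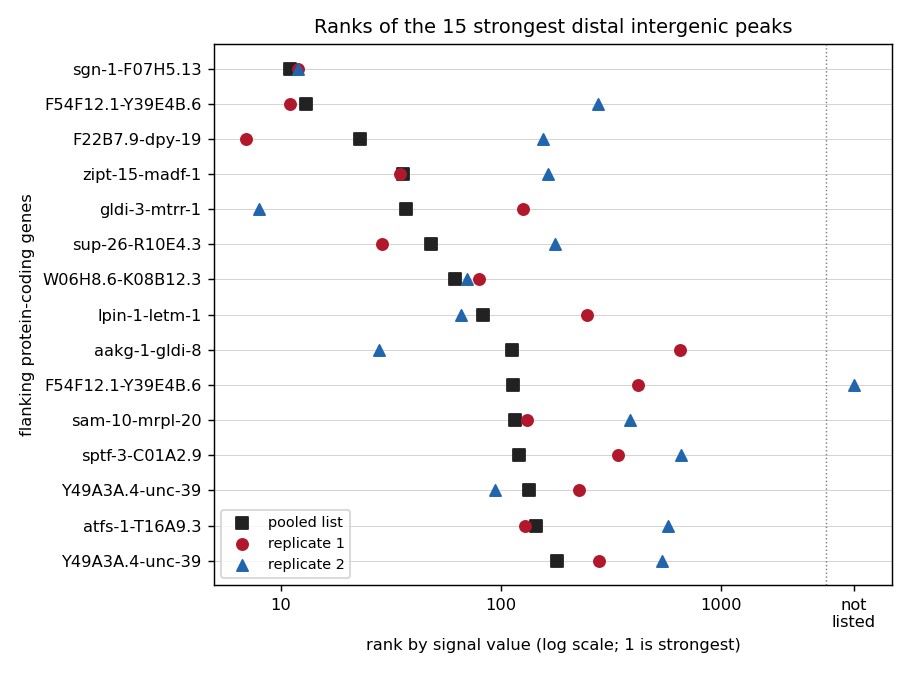
Rank by signal value (log axis, 1 is strongest) of the 15 strongest distal intergenic peaks in the pooled list (squares), replicate 1 (circles) and replicate 2 (triangles). Each line is 1 peak, named by the protein-coding genes on either side. The sgn-1 and W06H8.6 peaks have nearly the same rank in both replicates, and replicate 1 gives the better rank in 9 peaks and replicate 2 in 5 of the other 6. The peak of the F54F12.1 region marked as not listed has no replicate 2 summit within 200 bp. Replicate 2 has a summit just beyond that distance, at 13061592 (rank 25).

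Distal intergenic peaks were found again in the replicates about as often as other peaks. Of the 563, 190 (33.7%) had a summit within 200 bp in replicate 1 and 159 (28.2%) in replicate 2, 42 had one in both and 256 (45.5%) in neither. Other autosomal peaks had one in replicate 1 in 30.3% and in replicate 2 in 28.2%. The members' matches came from 182 distinct peaks of replicate 1 and 151 of replicate 2, since 75 members overlapped another member and neighbours can share a partner. Of all autosomal pooled peaks, 7.72% had a summit in both replicate lists, and the share was 7.46% of members (exact 95% interval 5.43 to 9.95%) and 7.75% of other autosomal peaks (7.01 to 8.55%), a difference that was not detected (odds ratio 0.959, two-sided Fisher's exact p = 0.868). Replicate 1 listed 2488 peaks and replicate 2 listed 2610. The rule applied to each list on its own found 227 distal intergenic peaks in replicate 1 (11.7% of its autosomal peaks) and 204 in replicate 2 (9.96%).

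Strong members, like other strong autosomal peaks, were mostly present in at least 1 replicate. All 8 members of the first 100 ranks had a summit in both replicate lists (exact 95% interval 63.1 to 100%). So did 62 of 72 other autosomal peaks of those ranks (86.1%). Among the 78 members of the first 1000 ranks, 34 had one in both (43.6%), 40 in 1 only and 4 in neither, and 303 of 698 other autosomal peaks of these ranks had one in both (43.4%). Between these last shares no difference was detected (odds ratio 1.01, Fisher's exact p = 1, a test added after the data were seen). Counted by list, 54 of the 78 members (69.2%) and 532 of the 698 others (76.2%) had a summit in replicate 1. In replicate 2 the counts were 54 (69.2%) and 438 (62.8%).

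No difference in rank from other peaks was detected. Of the autosomal peaks, 7.31% were among the 500 strongest of the pooled list. The count was 40 of 563 members (7.1%, exact 95% interval 5.12 to 9.55%) and 349 of 4760 other autosomal peaks (7.33%, 6.61 to 8.11%), with an odds ratio of 0.967 (two-sided Fisher's exact p = 0.932). The median distance from a member's summit to the nearest protein-coding start was 3.48 kb, and the largest was 19.9 kb. The share of members among the first 1000 ranks was 17.6% at 2 to 3 kb from a start (38 of 216), 11.1% at 3 to 5 kb (22 of 198), 10.9% at 5 to 10 kb (14 of 129) and 20% beyond 10 kb (4 of 20), and the exact 95% intervals of these shares overlap.

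The distance in the rule was not a visible border. The 43 members with a start 2001 to 2200 bp away had a median signal of 3.37 and a maximum of 19.0, which is the zipt-15 peak at 2181 bp. The 46 intergenic peaks just inside 2000 bp, at 1801 to 2000 bp, which are not members, had a median of 2.96 and a maximum of 27.5. That maximum was the peak between F38A6.4 and hif-1, the hypoxia-inducible factor gene, on chromosome V (summit 20778457, rank 17), 1950 bp from the nearest start. In the list of replicate 2 its summit was placed at 20778387, which meets the rule, so it counts as a member there, with rank 59. At the other border, 15 members had a 3′ end 1001 to 1200 bp away (median signal 3.46) and 20 peaks just outside had one 801 to 1000 bp away (median 3.05).

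Rank went together with the 10-base sequence. It was present within 100 bp of the summit in 31 of the 78 members of the first 1000 ranks (39.7%, exact 95% interval 28.8 to 51.5%) and in 51 of the 485 weaker members (10.5%, 7.93 to 13.6%), with an odds ratio of 5.61 and a two-sided Fisher's exact p of 1.72e-09, or 1.72e-08 after Benjamini-Hochberg adjustment over the 10 planned tests. In the 100 strongest peaks of the list 5 of 8 members had it, in the 500 strongest 21 of 40 (52.5%), and below rank 4000 13 of 241 (5.39%). Of the other autosomal peaks among the 100 strongest, 26 of 72 had it (36.1%), and 8 of the 12 that lie inside introns and away from starts. The strong members also had a median GC content of 45.3% in the 201 bp window, against 40.8% over all members, and a lower share of repeat-masked bases (median 16.2% against 20.4%), and the part of base composition in the difference was not tested. Other autosomal peaks went the same way, with a median GC content of 43.8% in strong ones against 39.8% in all, and 19.9% against 21.9% of masked bases. The same sequence was present in 2.09% of the 51489 windows of 201 bp into which all sequence that meets the rule was divided (95% interval 1.97 to 2.22%), and an exact copy in 0.798% of them. Exact copies were present in 34 members (6.04%) and in 252 of 4760 other autosomal peaks (5.29%).

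Over all ranks, 82 of 563 members had the 10-base sequence (14.6%, 11.8 to 17.8%). This was 556 of 4760 (11.7%) for other autosomal peaks, 90 of 810 (11.1%) for peaks inside introns and more than 1000 bp from a start, and 262 of 2143 (12.2%) for promoter peaks, which lie within 500 bp of a start. None of these differences passed the threshold after adjustment in Fisher's exact tests (odds ratio 1.29, unadjusted p = 0.0544, adjusted p = 0.136 against all other autosomal peaks; odds ratio 1.36, adjusted p = 0.136 against intronic peaks; odds ratio 1.22, adjusted p = 0.221 against promoter peaks). The 10-base sequence itself came from strong peaks of these other groups.

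Among strong peaks the distal intergenic ones had the sequence more often than promoter peaks and about as often as intronic ones. In the first 1000 ranks it was present in 39.7% of members, 37.3% of intronic peaks (31 of 83), 26.6% of all other autosomal peaks (186 of 698) and 21.9% of promoter peaks (87 of 397). Against all other autosomal peaks the odds ratio was 1.82 (Fisher's exact p = 0.0169, adjusted p = 0.0562), which missed the threshold. In 12 Fisher's exact tests added after the data were seen and adjusted over themselves, the difference from promoter peaks passed (odds ratio 2.35, adjusted p = 0.00477) and that from intronic peaks did not (odds ratio 1.11, unadjusted p = 0.871). Within the first 500 ranks, 21 of 40 members (52.5%) and 110 of 349 other autosomal peaks (31.5%) had it (odds ratio 2.40, adjusted Fisher's exact p = 0.0214).

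**Figure D2:**
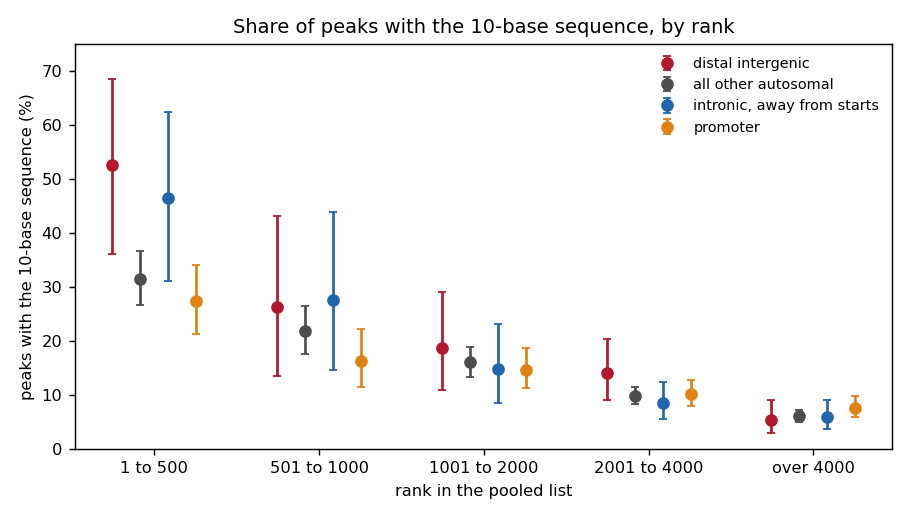
Percent of peaks with the 10-base sequence within 100 bp of the summit (y axis) by rank in the pooled list (x axis), for distal intergenic, all other autosomal, intronic and promoter peaks on autosomes. Points are shares of peaks and bars exact 95% intervals, which cover counting error only; the distal intergenic share falls from 52.5% in the first 500 ranks to 5.39% beyond rank 4000, and in the first 500 ranks lies near that of intronic peaks and above that of promoter peaks.

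Among strong members the sequence was more frequent in the peaks found in both replicates. Of the 34 strong members with a summit in both replicate lists, 20 had the 10-base sequence (58.8%, exact 95% interval 40.7 to 75.4%), and of the 44 others 11 had it (25%, 13.2 to 40.3%), odds ratio 4.29 (adjusted Fisher's exact p = 0.00943 over the 12 added tests). Other autosomal peaks of the first 1000 ranks had it in 85 of 303 (28.1%) when in both lists and in 101 of 395 (25.6%) when not. The members exceeded the others among peaks in both lists (odds ratio 3.66, adjusted Fisher's exact p = 0.00381), and among peaks that were not the shares were 25% and 25.6% (odds ratio 0.97, p = 1). Whether these contrasts differ from each other was not tested. Presence in both lists also goes with rank: it held for 27 of 40 members of the first 500 ranks and 7 of 38 of ranks 501 to 1000. The 10-base share in these 2 rank classes was 52.5% and 26.3%. The part of rank in the contrasts was not tested.

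Matches were concentrated at the summits. Strong members had 47 matches in the 100 bp on either side, or 3.01 per kb (exact Poisson 95% interval 2.21 to 4.01), and 16 matches at 500 to 1000 bp, or 0.205 per kb (0.117 to 0.333), a ratio of 14.7. Weaker members had 0.649 per kb near the summit and 0.171 at 500 to 1000 bp, a ratio of 3.8. In the other autosomal peaks the ratios were 10.98 for strong and 3.63 for weaker ones. The sequence was found within 100 bp of summits outside the distal intergenic set, in strong against weak peaks. These last 2 ratios are therefore not independent of how it was found. Of the 82 members with a match, 34 had an exact copy, 17 had more than 1 match, and the centre of the best match was a median of 40 bp from the summit (37.5 bp in strong members). The best match, the one with fewest mismatches and then closest to the summit, lay on the plus strand in 35 and on the minus strand in 47.

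**Figure D3:**
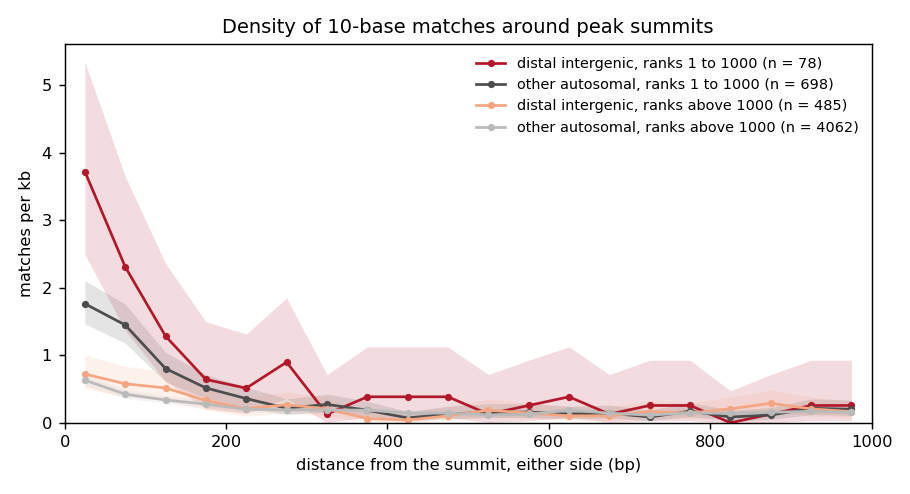
Matches to the 10-base sequence per kb (y axis) by distance from the summit in bins of 50 bp, both sides together (x axis), for distal intergenic and other autosomal peaks of the first 1000 and of later ranks. Lines are observed densities and bands exact Poisson 95% intervals; strong distal intergenic peaks have the highest density at the summit, and all 4 groups are low beyond 500 bp.

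The 48 members whose best match had a mismatch did not share 1 altered base. The mismatch fell at position 7 in 9 members, at positions 1 and 5 in 7 each, at position 10 in 6, at position 3 in 5, and at each of the other positions in 2 or 3. The most frequent substitutions were C5T, C7A and G1A, with 4 members each. C5T is the change in the strongest member.

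GAGAGA was more frequent in distal intergenic peaks than in other autosomal peaks, among strong and weaker peaks alike. It was present in 194 of 563 members (34.5%, exact 95% interval 30.5 to 38.5%) and in 1257 of 4760 others (26.4%, 25.2 to 27.7%), with an odds ratio of 1.47 and an adjusted Fisher's exact p of 3.72e-04. All windows of distal intergenic sequence had it in 10.7%. Among the first 1000 ranks it was present in 49 of 78 members (62.8%) and 306 of 698 others (43.8%), and below these ranks in 29.9% and 23.4% (adjusted Fisher's exact p = 0.00477 for both, among the added tests). Over all ranks it was more frequent in members than in promoter peaks (25.4%, adjusted Fisher's exact p = 3.14e-04) and not shown to differ from intronic peaks (30%, adjusted p = 0.131). Among the first 1000 ranks 52 of 83 intronic peaks had it (62.7%), a share near that of members (62.8%).

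Most strong members had at least 1 of these sequences. Of the 78, 57 (73.1%) had the 10-base sequence or GAGAGA, 23 had both, and 21 had neither. These counts were not made for other peaks. Taken singly, the 2 sequences were present in 39.7% and 62.8% of strong members and 37.3% and 62.7% of strong intronic peaks. In all other strong autosomal peaks the shares were 26.6% and 43.8%. Of the 15 strongest members the lpin-1 peak was the 1 with neither. GAGAGA matches can overlap the 10-base sequence at its GAGA end, so the shares are not independent of each other.

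Distal intergenic peaks were spread unevenly over the sequence that meets the rule, which amounts to 10.6 Mb, or 12.9% of the 82.6 Mb of the autosomes, in 2692 intergenic regions. The overall density was 53.0 peaks per Mb (exact Poisson 95% interval 48.7 to 57.6). Regions between genes that point away from each other had 59.3 per Mb (51.6 to 67.8, 212 peaks), regions between genes of the same direction 56.3 (50.3 to 62.9, 313 peaks) and regions between genes that point toward each other 25.9 (18.4 to 35.6, 38 peaks). The interval of the last does not overlap those of the other 2. Among the 15 strongest members, 10 lay between divergent genes, 5 between genes of the same direction and 0 between convergent genes.

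The middle 40% of each chromosome, where essential genes are dense and recombination is low, had 70.6 distal intergenic peaks per Mb (62.4 to 79.5), and the outer 30% at each end had 43.1 (38.3 to 48.3). By chromosome, the density was 64.5 per Mb on I, 55.4 on II, 65.3 on III, 44.7 on IV and 47.0 on V. On chromosome II the middle and the outer parts differed most, with 94.2 and 29.96 per Mb, and on chromosome III they were alike, with 64.4 and 65.9. For members of the first 1000 ranks the density was 9.12 per Mb in the middle (6.35 to 12.7) and 6.34 in the outer parts (4.59 to 8.55), and these intervals overlap. Intervals cover counting error only, and neighbouring peaks are not independent.

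**Figure D4:**
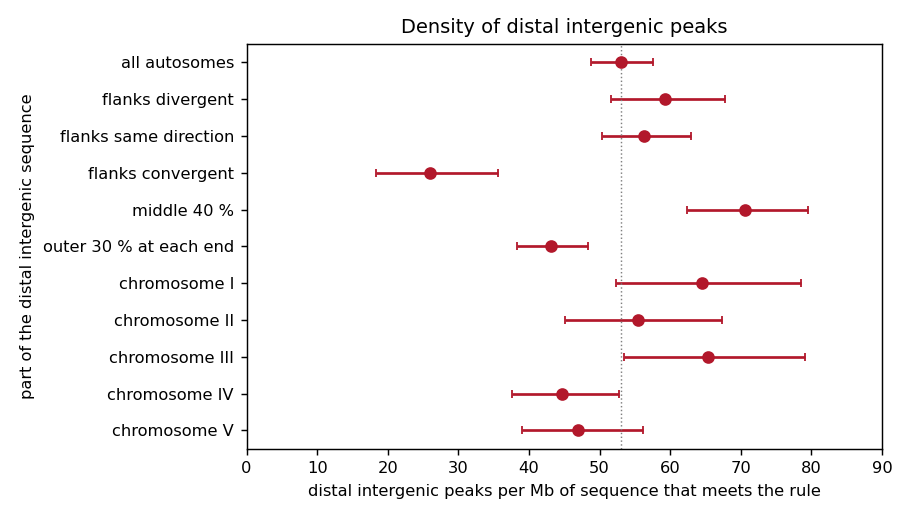
Number of distal intergenic peaks per Mb of sequence that meets the rule (x axis) by direction of the flanking genes, position on the chromosome and chromosome (y axis). Points are observed densities and bars exact Poisson 95% intervals, and the dotted line is the density over all autosomes (53.0 per Mb); convergent regions (25.9) and chromosome ends (43.1) lie below it and chromosome middles (70.6) above it.

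The share of members with the 10-base sequence also differed by chromosome. It was 18.4% on I (18 of 98), 9.9% on II (10 of 101), 21.0% on III (22 of 105), 18.0% on IV (25 of 139) and 5.83% on V (7 of 120, exact 95% interval 2.38 to 11.6%). The interval of chromosome V overlaps that of chromosome II and, narrowly, that of chromosome I, but not those of chromosomes III (13.6 to 29.99%) and IV (11.99 to 25.4%). Other autosomal peaks had a lowest share on the same chromosome, 8.68% on V, and 10.01 to 13.7% on the other 4. All distal intergenic windows had 1.62% on V and 1.69 to 2.96% elsewhere. In the members of the first 1000 ranks it was 4 of 18 on V and 27 of the 60 on the other chromosomes.

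**Figure D5:**
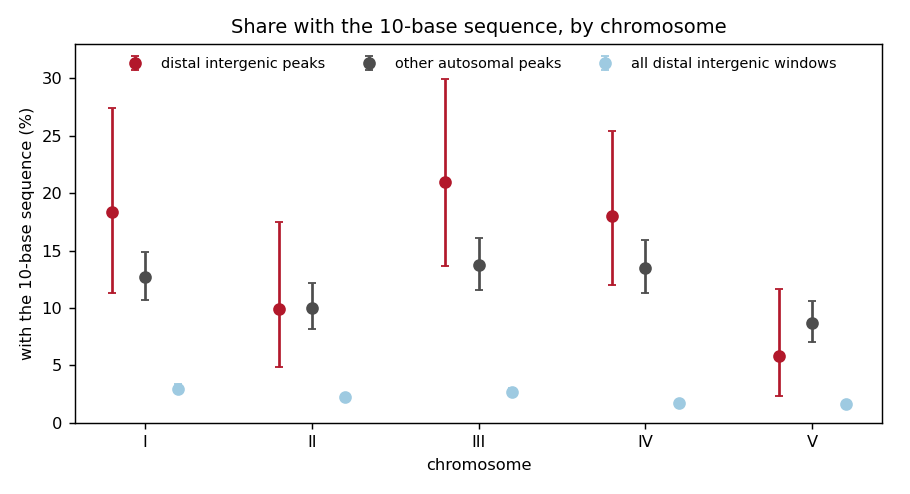
Percent with the 10-base sequence (y axis) by chromosome (x axis) for distal intergenic peaks, other autosomal peaks and all 201 bp windows of distal intergenic sequence. Points are shares and bars exact 95% intervals; the share of distal intergenic peaks is lowest on V (5.83%) and highest on III (21.0%), and in windows it stays between 1.62 and 2.96%.

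Members often shared an intergenic region. Of the 2692 regions, 378 (14.0%) held at least 1 member, 269 held 1 and 109 held more, and these 109 held 294 of the 563 members. A region that held a member was 3.71 to 46.2 kb long, with a median over members of 9.49 kb. Regions with several members, and the members named in them that are not among the 15 strongest, were picked after their values were seen. The region between snt-1, the synaptotagmin gene, and egl-27, which encodes a protein related to the MTA1 subunit of the NuRD complex, held 9 members within 18.6 kb. Their signals ran from 2.09 to 7.56, the strongest had rank 590, 2 had the 10-base sequence, and none had a summit in both replicate lists.

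The region between F54F12.1 and Y39E4B.6 (15.3 kb) held 7 members, 4 of them in the first 1000 ranks. Here the replicates placed their strongest peak at different positions: in replicate 1 the best was the peak at 13062660, rank 11, and in replicate 2 it was the peak at 13061592, rank 25 with a signal of 10.9, whose pooled counterpart had rank 386. The window of that counterpart had 59.7% repeat-masked bases and no match to the 10-base sequence, while the peaks at 13062632 and 13061371 had 8.96% and 10.9% and a match each. The region between irld-18 and dmd-6, a DM-domain gene, was 35.6 kb long and held 7 members with signals of 2.82 to 8.9, of which 0 had the 10-base sequence. Its best member, at rank 387, ranked 2353rd in replicate 1 and 879th in replicate 2.

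The region between Y49A3A.4 and unc-39 (chromosome V, 14.2 kb) held 8 members and also the microRNA genes mir-48 and mir-241. Both belong to the let-7 family, which sets the timing of larval cell fates in the heterochronic pathway. The member at 14366760 (pooled rank 180, signal 11.8; rank 280 in replicate 1 and 537 in replicate 2) lay 477 bp upstream of mir-241, which is annotated on the minus strand. A weaker member, at 14364559 (rank 2045, signal 4.02, in the list of replicate 2 only, at rank 283), lay 50 bp upstream of mir-48. The strongest member of the region, at 14368449 (rank 135, ranks 226 and 94 in the replicates), lay 4625 bp from unc-39.

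A second group of members lay at mir-52, of the miR-51 family, on chromosome IV between irld-55 and Y37A1B.7. The peaks at 14033378, 14033583 and 14033853 (pooled ranks 239, 281 and 574) lay 630, 425 and 155 bp upstream of mir-52 and inside annotated noncoding RNA genes, and were 9927 to 10402 bp from the nearest protein-coding start. The first was listed in replicate 2 only (rank 345), the second in both (ranks 177 and 831) and the third in replicate 1 only (rank 166). The windows of 201 bp around the summits at mir-241 (chrV:14366660-14366860) and at mir-52 (chrIV:14033278-14033478 and chrIV:14033483-14033683) are shown on the plus strand, with matches to the 10-base sequence or GAGAGA in capitals. They were chosen after their values were seen, as the strongest members upstream of microRNAs with a known family.
mir-241: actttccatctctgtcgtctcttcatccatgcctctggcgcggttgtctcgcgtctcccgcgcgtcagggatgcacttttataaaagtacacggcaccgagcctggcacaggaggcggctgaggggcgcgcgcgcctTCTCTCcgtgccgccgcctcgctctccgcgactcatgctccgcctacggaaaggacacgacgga
mir-52, rank 239: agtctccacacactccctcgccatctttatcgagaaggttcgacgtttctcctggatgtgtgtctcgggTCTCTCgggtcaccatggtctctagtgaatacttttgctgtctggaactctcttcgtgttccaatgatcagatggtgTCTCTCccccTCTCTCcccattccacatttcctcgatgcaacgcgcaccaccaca
mir-52, rank 281: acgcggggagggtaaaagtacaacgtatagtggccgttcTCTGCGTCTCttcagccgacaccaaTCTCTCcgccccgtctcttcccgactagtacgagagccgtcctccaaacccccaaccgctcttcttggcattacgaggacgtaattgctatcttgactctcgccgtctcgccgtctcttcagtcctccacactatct

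The mir-241 window had a GC content of 63.7%, no match to the 10-base sequence and 1 to GAGAGA. The mir-52 windows had 52.2% and 55.7%, with 3 matches to GAGAGA in the first and an exact 10-base match and 1 to GAGAGA in the second. In all, 19 members (3.37%, exact 95% interval 2.04 to 5.22%) lay within 2000 bp of a microRNA gene, which holds for 61 of 4760 other autosomal peaks (1.28%, 0.982 to 1.64%) and for 1.18% of the sequence that meets the rule. Of the 78 strong members 5 did so (6.41%, 2.11 to 14.3%), and of the 698 strong other autosomal peaks 14 (2.01%, 1.10 to 3.34%), and these intervals overlap. The 5 include the neighbouring peaks at mir-52 and a peak 1524 bp upstream of mir-2215 beside sam-10 (rank 116). The 19 lay near 12 of the 186 autosomal microRNA genes, so several share a gene.

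Other noncoding genes were counted by class. A summit inside any annotated noncoding gene or pseudogene was found for 59 members (10.5%) and for 259 other autosomal peaks (5.44%), and such genes make up 16.6% of the sequence that meets the rule. Genes of the annotated class ncRNA held 36 members (6.39%, exact 95% interval 4.52 to 8.74%) in 1.55% of that sequence, with 3.84% of other autosomal peaks, and pseudogenes held 17 (3.02%, 1.77 to 4.79%) in 13.2% of it, with 0.714% of the other peaks. All 5 strong members inside a noncoding gene were in the ncRNA class, 3 of them at mir-52, 1 in C10F3.15 beside fos-1, a bZIP gene needed for anchor cell invasion (rank 480), and 1 beside egl-27 (rank 846), the last 2 named after their values were seen. Only 10 members (1.78%) lay within 200 bp of a tRNA, snRNA, snoRNA or rRNA gene, against 2.9% of other autosomal peaks, a difference that did not pass the threshold (odds ratio 0.606, adjusted Fisher's exact p = 0.221). With the list of replicate 2 alone the odds ratio was 0.322, from 2 of 204 members, and it did not pass either.

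The protein-coding gene nearest to a member was seldom in any given one of the gene families counted by symbol. It was a nuclear hormone receptor gene for 16 members (2.84%, in 2.11% of the sequence that meets the rule), a chemoreceptor gene for 13 (2.31%, exact 95% interval 1.24 to 3.92%, in 5.51% of the sequence), a homeobox gene for 10 (1.78%, in 1.15%), an F-box gene for 4 (0.71%, in 1.48%), a collagen gene for 3 (0.533%, in 0.614%), a neuropeptide gene for 2 (0.355%, in 1.002%), a bHLH gene for 1 (0.178%, in 0.471%), a C-type lectin gene for 1 (0.178%, in 0.741%) and a cytochrome P450 gene for 0 of 563, a count whose limit, taken as 3 counts, is a share of 0.533%. The 10 homeobox members stood at 5 genes and were led by the unc-39 peak. Among other autosomal peaks the shares were 1.58% for nuclear hormone receptor, 1.47% for chemoreceptor, 0.378% for homeobox, 0.441% for F-box, 0.231% for collagen, 0.357% for neuropeptide, 0.231% for bHLH, 0.567% for C-type lectin and 0.126% for P450 genes. The members' chemoreceptor share was thus below that of the sequence and above that of other peaks, and no test was made of either. Its strongest member, beside srg-55 (rank 752, signal 6.7), was in neither replicate list.

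The leading members of the other lists were weaker than the 15 above. The peak 6705 bp from hlh-10, a bHLH gene (rank 209, signal 11.4), ranked 146th in replicate 1 and 995th in replicate 2. The peak between srw-60 and the nuclear hormone receptor gene nhr-88 (rank 408, signal 8.73) was in neither replicate list. The peaks nearest to clec-182 (rank 1241, ranks 513 and 1122 in the replicates), col-88 (rank 2214, in replicate 1 only at rank 713), fbxa-220 (rank 2215) and between the insulin-like genes ins-3 and ins-4 (rank 5916, signal 2.19) covered the lower part of the list, and the last 2 were in neither replicate list. The nearest gene is a label of position and was not tested as a target.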

How the data were processed

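EOR-1 ChIP-seq was analysed in 1 group of 2 biological replicates, numbered as in the labels. The authors deposited peak lists on ce11 for each replicate, for both pooled, and after thresholding by the irreproducible discovery rate (33 peaks). Column 7 is the deposited signal value, in a normalization not given in the sources used here, column 9 the deposited −log10 q-value, not used for ranking, and column 10 the summit offset. For the aligner, caller, versions, control, depth and threshold nothing is stated in those sources, and the ce10 lists were not used here. Peaks were 404 bp wide in the pooled list, 416 bp in replicate 1 and 496 bp in replicate 2.

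Summits were placed against Ensembl release 115 genes and sequence on WBcel235 with Python 3.11.15, numpy 2.4.6 and pandas 2.3.3. Two-sided Fisher's exact tests compared shares of peaks (scipy 1.17.1), with p adjusted over 10 planned and, separately, 12 added tests by the Benjamini-Hochberg method (statsmodels 0.14.6) at 0.05; p is adjusted where so named. The calculations were tested on simulated data. Peaks are not replicates, so p-values and exact 95% intervals describe the lists and cover counting error only. The members, motifs and lists were chosen with earlier results of these data known. Named members were the 15 strongest, those that coincide with a thresholded peak, the strongest of each autosome and the strongest nearest to a gene of each of 9 lists, and every other member named was chosen after its values were seen. Alternatives changed the distances, windows, mismatches, neighbours, noncoding genes and lists.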

Additional observations from a re-analysis of the deposited data

How the results depend on the processing

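Of 85 alternative values of the 10 comparisons, 62 kept their direction and side of the threshold, 13 passed it where the reported one did not, 2 no longer passed and 8 reversed. Values are odds ratios. In these 8 the odds ratio crossed 1, and neither they nor the reported values passed the threshold. They were the share among the strongest peaks at 5000 bp from starts (1.22), outside noncoding genes (1.09) and in replicate 1 alone (1.01; 0.956 in replicate 2 alone), the share in both lists outside noncoding genes (1.1) and in replicate 2 alone (1.06; 0.83 in replicate 1 alone), and the thresholded share at 1000 bp (0.927), with summits shared within 400 bp (0.905) and in replicate 1 alone (0.903; 1.82 in replicate 2 alone). The cause was not tested. For the 10-base share against other autosomal, intronic and promoter peaks, a start distance of 1000 bp gave 1.47, 1.48 and 1.33, and a window of 200 bp gave 1.34, 1.45 and 1.30, all past the threshold. At 1000 bp the members include peaks that had been used to find the sequence. No 10-base value at that distance is therefore independent of how the sequence was found. For strong peaks, the 1000 bp distance gave 1.78, peaks with no stronger peak within 1000 bp 1.9, and windows of 50 and 200 bp 2.17 and 1.96, also past the threshold. With exact copies only, the values were 1.15, 1.15 and 1.12 against other autosomal, intronic and promoter peaks. They were 1.67 for strong peaks, and none of these passed. At 5000 bp from starts, which leaves 149 members, the strong and weak members differed by 4.57 and GAGAGA by 1.28, and neither passed. With the list of 1 replicate in place of the pooled list, the values ran from 1.23 to 1.71 (10-base share), 1.3 to 1.78 (against promoter peaks) and 1.61 to 3.14 (strong peaks), and the highest, from replicate 2 alone, passed in each. The cuts for strong peaks stayed at 500 or 1000 ranks, in lists of 2488 peaks (replicate 1) and 2610 (replicate 2) against 6708 pooled. Strong peaks are therefore a larger part of a replicate list. No paired analysis was possible because there is 1 group. Depth is unknown, and a peak missing from a replicate list may lie below its limit.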
